A study of Mus musculus with 4 samples.

Results

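Inflammasomes are protein assemblies in which a sensor recognises a microbial or danger signal and, directly or through the adaptor ASC, brings caspase-1 molecules together. Caspase-1 then cleaves the precursors of IL-1β and IL-18 and also gasdermin D, whose freed end opens pores in the plasma membrane, and the oligomerisation of ninjurin-1 finally tears the swollen cell open. Macrophages are the cells in which this form of death, pyroptosis, is best known, and transcription of Nlrp3 and of Il1b is a priming step that precedes assembly.

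The 9 genes described here were taken by symbol from the table of gene counts as inflammasome sensors (Nlrp3, Nlrp1b, Nlrc4 and Aim2), the adaptor Pycard, the inflammatory caspases Casp1 and Casp4, and the membrane rupture genes Gsdmd and Ninj1. All 9 were among the 21878 genes of the table, and all 9 passed the filter on low counts that left 12494 genes for testing. They were measured by RNA sequencing in 4 libraries of bone marrow-derived macrophages from C57BL/6 mice aged 8 weeks, 2 from wild-type (WT) mice and 2 from mice labelled anti-Act1, which the study describes as carrying a knockdown of the adaptor Act1 in macrophages only. The promoter that confines the knockdown is not given in the sources used here. The macrophages of both groups had been cocultured with MC38, a mouse colon carcinoma line, for 48 h according to the labels, while the study's text gives a shorter time, and no library without MC38 was analysed here. The comparison asks how these transcripts differ between libraries that carry the label anti-Act1 and libraries that carry the label WT, both from macrophages cocultured with the same tumour cells. WT and anti-Act1 stand for these labels throughout. The measurements are of transcripts, and assembly, cleavage and cell death were not measured in these libraries.

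Total counts were 64199075 and 75062945 in the WT libraries and 61926229 and 55435063 in the anti-Act1 libraries, so that a gene at 0 counts could still have had up to 0.0395 to 0.0549 CPM (counts scaled to the library total), the worth of 3 counts, by counting error alone. Traf3ip2, which encodes Act1, was at 6.98 and 7.54 CPM in WT and 9.63 and 7.84 CPM in anti-Act1, a log2 fold change of 0.27 (adjusted p in edgeR = 0.117) that became 0.41 (adjusted p in edgeR = 0.0343) without anti-Act1 replicate 2 and 0.11 (adjusted p in edgeR = 0.723) without anti-Act1 replicate 1. The transcript was thus not lower under the label anti-Act1 in these libraries. From a separate measurement the study reports a marked reduction of Act1 expression in bone marrow-derived macrophages of anti-Act1 mice. Its text does not say whether RNA or protein was measured there. Every direction given here rests on the labels. All 8 macrophage markers were expressed, with a summed level of 24569.7 to 26254.2 CPM, although Itgam and Mertk were lower in anti-Act1 (log2 fold change -0.31 and -0.40) and Cd14 was higher (0.16). The 8 epithelial markers summed to between 0.293 and 0.898 CPM, with Krt8, Krt18, Krt20 and Cdx2 at 0 counts in every library. By the study's methods, porous transwell inserts kept macrophages and tumour cells apart in coculture. No library of MC38 alone was analysed, so these values cannot tell how much MC38 RNA was present. Neutrophil markers summed to 6.57 to 7.46 CPM, with S100a9, Ltf and Retnlg lower and S100a8 higher in anti-Act1, and markers of fibroblasts (1.33 to 2.19 CPM), B cells (2.91 to 3.99 CPM), dendritic cells (4.26 to 5.31 CPM) and T cells (25.2 to 31.0 CPM, nearly all of it Cd4, a gene called higher in anti-Act1) were low. Ddx3y of the Y chromosome was at 92.9 ± 5.74 CPM (SD, n = 2) in WT and at 0 counts in both anti-Act1 libraries, and the 3 other Y-linked genes examined had at most 1 count there, so genotype and whatever else set the Y-linked transcripts cannot be told apart. The part of these markers in the results below was not tested.

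Of the 9 genes, 2 were higher and 1 was lower under the label anti-Act1 at an edgeR adjusted p under 0.05. Ninj1 rose 1.38-fold, Nlrp3 rose 1.24-fold and Nlrp1b fell to 0.630 of its WT level, and the other 6 genes, among them the adaptor, both caspases and gasdermin D, were not called. These are bulk libraries, in which fewer cells of a type and less RNA per cell cannot be told apart. The share of called genes over the whole table was 20.7% (10.9% higher and 9.76% lower), against which the 3 of 9 genes (2 higher and 1 lower) are read. Their median change was -0.04 on the log2 scale, beside -0.0046 over all genes tested. In CPM the groups did not overlap for 5 of the 9 genes, and the same was true of 57.1% of all genes tested.

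The regions upstream of the transcription start are shown for the 3 called genes and for Casp4, which was not called and is the only other of the 8 genes with a window that matches the NF-κB consensus. No window was searched for Gsdmd. They are the 250 bases before the most upstream start that RefSeq lists, written 5′ to 3′ on the gene's strand (GRCm38.p6). The capitals mark matches to the NF-κB consensus in Nlrp3 and Casp4 and matches to the GC box GGGCGG in Ninj1, on either strand. The windows lie at chr11:59541319-59541568 (plus strand), chr13:49187279-49187528 (plus strand), chr11:71230734-71230983 (minus strand) and chr9:5308599-5308848 (plus strand).
Nlrp3: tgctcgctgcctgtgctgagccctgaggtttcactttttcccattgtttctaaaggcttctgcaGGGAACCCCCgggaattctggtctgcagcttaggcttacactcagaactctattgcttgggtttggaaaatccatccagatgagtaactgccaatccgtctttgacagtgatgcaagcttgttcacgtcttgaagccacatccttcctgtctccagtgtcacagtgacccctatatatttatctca
Ninj1: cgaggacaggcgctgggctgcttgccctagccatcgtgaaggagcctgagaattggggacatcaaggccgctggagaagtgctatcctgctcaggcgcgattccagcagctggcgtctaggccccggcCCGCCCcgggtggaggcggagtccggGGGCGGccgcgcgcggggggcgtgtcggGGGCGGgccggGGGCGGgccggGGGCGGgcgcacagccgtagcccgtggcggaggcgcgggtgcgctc
Nlrp1b: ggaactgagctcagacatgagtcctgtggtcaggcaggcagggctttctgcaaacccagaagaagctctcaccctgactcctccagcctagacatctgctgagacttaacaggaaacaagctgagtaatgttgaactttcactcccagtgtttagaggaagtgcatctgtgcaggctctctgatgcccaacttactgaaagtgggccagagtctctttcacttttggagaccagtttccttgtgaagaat
Casp4: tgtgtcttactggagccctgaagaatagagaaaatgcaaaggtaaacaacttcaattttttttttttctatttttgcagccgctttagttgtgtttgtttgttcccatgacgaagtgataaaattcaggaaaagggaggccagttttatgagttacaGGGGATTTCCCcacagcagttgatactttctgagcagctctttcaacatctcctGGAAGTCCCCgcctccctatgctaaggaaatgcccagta

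The NF-κB consensus stood once in the Nlrp3 window, 186 to 177 bases before the start, where it read on both strands. It stood at a pair of places in the Casp4 window, 93 to 83 bases (as overlapping matches) and 39 to 30 bases before the start. The Ninj1 window held 5 GC boxes, 4 on the gene's strand beginning 96, 68, 57 and 46 bases before the start and 1 on the opposite strand 122 bases before it, in a sequence of 76.0% G and C with 31 CpG dinucleotides. The Nlrp1b window had 49.2% G and C, 0 CpG dinucleotides and none of the motifs searched. Of the other genes with a window, Aim2 had 1 GC box and Nlrc4, Pycard and Casp1 had no match. Apart from Ninj1, the windows had 41.6% (Casp4) to 49.6% (Aim2) G and C and at most 4 CpG dinucleotides. The median over all promoter windows was 52.4% G and C. Over all 32851 RefSeq windows of this length the NF-κB consensus was found in 7.25%, the GC box in 32.7%, the interferon-γ activated site (TTC and GAA spaced by 3 bases) in 7.02% and an interferon-stimulated response element (GAAA and GAAA spaced by 2 bases) in 2.98%. The last 2 motifs were in none of the 8 windows. These matches describe the letters of the windows, and binding was not measured.

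Nlrp3 encodes the sensor that responds to potassium efflux and to a wide range of membrane and organelle damage. Its level was 64.5 and 65.3 CPM in WT and 79.2 and 81.3 CPM in anti-Act1. Both anti-Act1 libraries stood above both WT libraries, and the replicates of each group lay close together. The log2 fold change was 0.31 (SE 0.06, adjusted p in edgeR = 3.72e-05), and the 95% confidence interval of the fold ran from 1.14 to 1.34. The counts behind these values were 4167 and 4957 in WT and 4894 and 4441 in anti-Act1.

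Nlrp1b, a sensor that is activated when pathogen proteases or inhibition of the dipeptidyl peptidases DPP8 and DPP9 lead to the breakdown of its amino-terminal part, moved the other way. It was at 23.0 and 24.5 CPM in WT and at 15.8 and 14.1 CPM in anti-Act1. Both WT libraries stood above both anti-Act1 libraries. The log2 fold change was -0.67 (SE 0.08, adjusted p in edgeR = 1.15e-08), which is 1.59-fold lower, with a 95% confidence interval of 0.562 to 0.707 for the fold. This was the largest change in size among the 9 genes, from counts of 1485 and 1858 in WT and 978 and 768 in anti-Act1. Its neighbour and paralog on chromosome 11, Nlrp1a, was at 7.92 and 7.35 CPM in WT and 5.88 and 5.82 CPM in anti-Act1 (log2 fold change -0.38, SE 0.13, adjusted p in edgeR = 0.0239), and this call was kept in 1 of the 4 fits that each leave out a library, the one without WT replicate 2. No stretch of 150 bases, the length of a read, was shared between the longest coding transcript of Nlrp1b and transcripts of other genes in GENCODE M21.

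Nlrc4, which oligomerises after NAIP proteins bind flagellin or parts of bacterial secretion systems, was at 24.1 and 24.8 CPM in WT and 23.98 and 22.80 CPM in anti-Act1. The anti-Act1 libraries were both below the WT libraries, by a margin smaller than the spread within either group. Its log2 fold change was -0.06 (SE 0.07, adjusted p in edgeR = 0.624), with a 95% confidence interval of -0.21 to 0.09, and lay between -0.10 and -0.03 with 1 library left out. Aim2, the sensor of double-stranded DNA in the cytosol, was at 71.5 and 78.2 CPM in WT and 72.7 and 66.8 CPM in anti-Act1. The groups overlapped, and the log2 fold change of -0.10 (SE 0.06, adjusted p in edgeR = 0.247) had a 95% confidence interval of -0.22 to 0.02. It was -0.17 (adjusted p in edgeR = 0.0503) without WT replicate 1 and -0.03 without WT replicate 2.

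**Figure D1:**
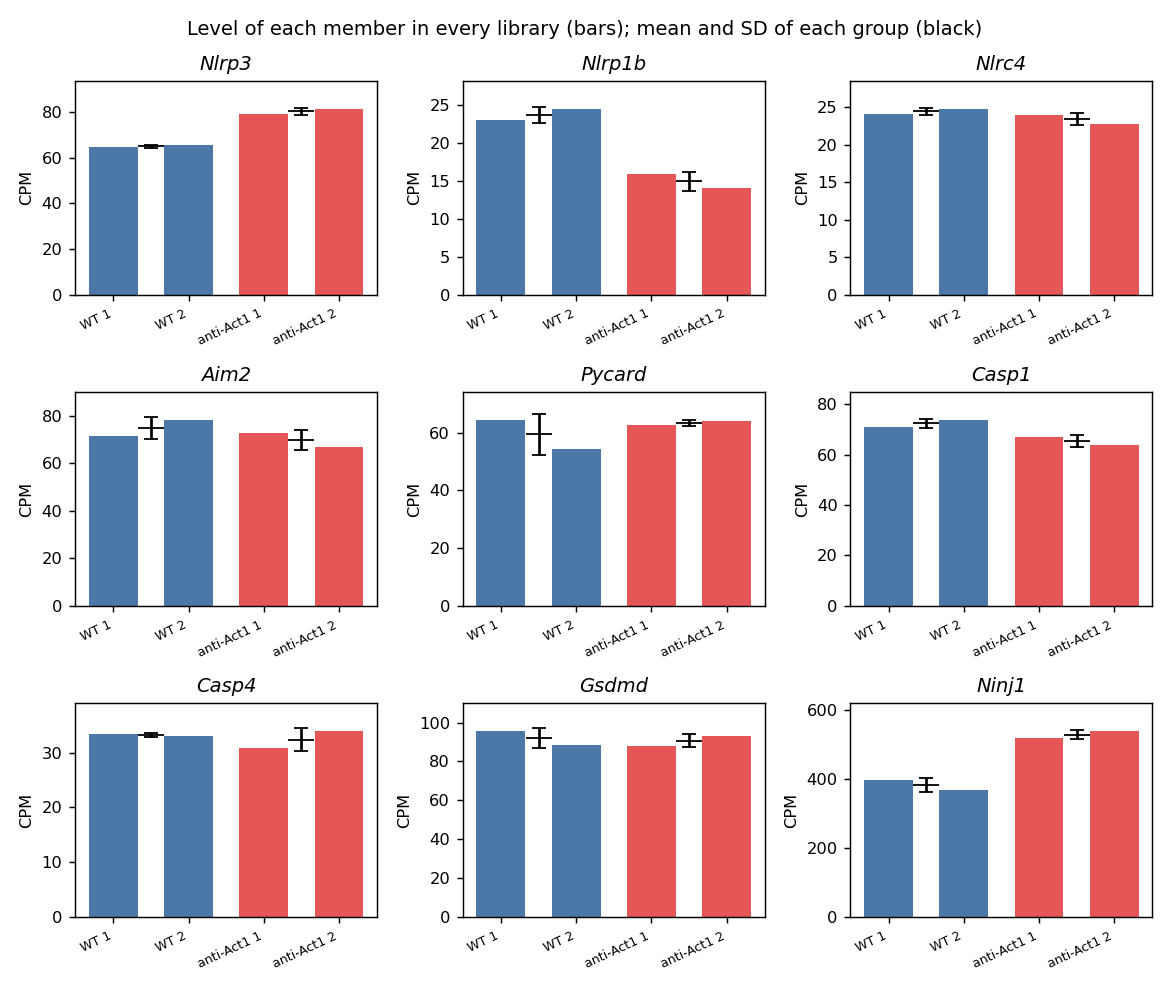
Level of each of the 9 genes in CPM (vertical axis, starting at 0 and scaled separately for each gene) in the 2 WT libraries (blue bars) and the 2 anti-Act1 libraries (red bars), with the mean and SD of each group in black. Ninj1 and Nlrp3 are higher in both anti-Act1 libraries, Nlrp1b is lower in both, and the bars of Aim2, Pycard, Casp4 and Gsdmd overlap between groups.

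The makeup of the sensor transcripts per unit of length is given by the FPKM values, which are counts divided by gene length and library total. Nlrp3 made up 38.0% and 36.6% of the summed FPKM of the 4 sensors in WT and 44.2% and 46.8% in anti-Act1. Nlrp1b made up 11.5% and 11.7% in WT and 7.52% and 6.90% in anti-Act1. The sum itself overlapped between groups, at 43.1 and 45.5 FPKM in WT and 45.2 and 43.2 FPKM in anti-Act1. The ratio of Nlrp3 to Nlrp1b in FPKM was 3.29 and 3.13 in WT and 5.87 and 6.79 in anti-Act1. In WT libraries the FPKM ratio of Nlrp3 to Aim2 was 1.04 and 0.961, so neither was the higher in both, whereas it was 1.26 and 1.40 in the anti-Act1 libraries. These shares and ratios restate the levels of single genes and were not tested.

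Pycard encodes ASC, the adaptor that joins sensors to caspase-1. Its level was 64.3 and 54.4 CPM in WT and 62.5 and 64.2 CPM in anti-Act1. The values of 3 libraries lay close together and WT replicate 2 was lower than the rest. The log2 fold change was 0.09 (SE 0.06, adjusted p in edgeR = 0.332) with all libraries, 0.22 (adjusted p in edgeR = 0.0109) without WT replicate 1 and -0.02 (adjusted p in edgeR = 0.880) without WT replicate 2, so that 1 WT library decided both the call and the direction. Of the 150-base stretches of its longest coding transcript, 9.20% also lie in Gm45205, a gene model on the opposite strand, and the sources used here do not say whether counting was by strand.

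Casp1, the protease of the inflammasome, was at 71.2 and 73.8 CPM in WT and 67.1 and 63.8 CPM in anti-Act1. Both anti-Act1 libraries were below both WT libraries, by a small margin. The log2 fold change was -0.15 (SE 0.06, 95% confidence interval -0.26 to -0.03), and the edgeR adjusted p of 0.0616 missed the threshold. It passed without WT replicate 1, with a log2 fold change of -0.17 (adjusted p in edgeR = 0.0414), and without composition normalization (-0.17, adjusted p in edgeR = 0.0353). Casp4, the mouse gene also known as caspase-11, whose protein binds lipopolysaccharide in the cytosol and cleaves gasdermin D without caspase-1, was at 33.4 and 33.0 CPM in WT and 30.8 and 33.9 CPM in anti-Act1. Of the anti-Act1 libraries, 1 was the lowest of all 4 libraries and the other the highest. Its log2 fold change was -0.04 (SE 0.07, adjusted p in edgeR = 0.758) and turned to 0.03 without anti-Act1 replicate 1.

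**Figure D2:**
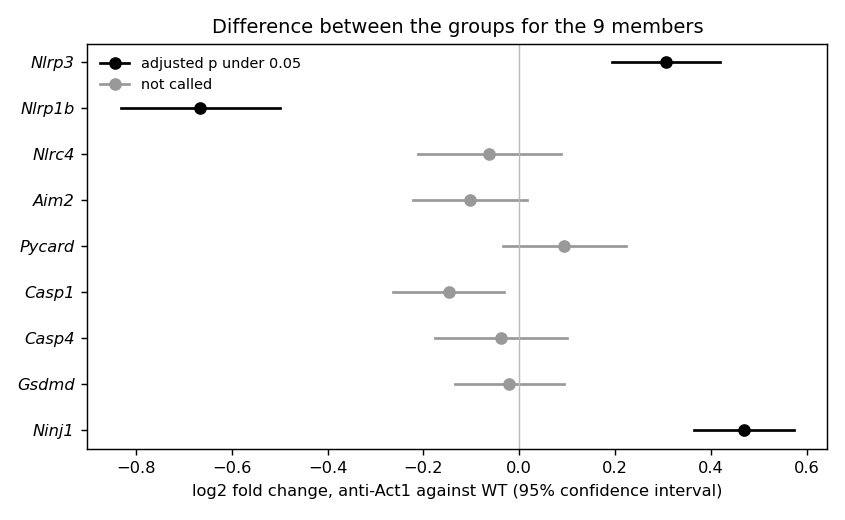
Log2 fold change of each gene in the libraries labelled anti-Act1 against those labelled WT (horizontal axis, points) with its 95% confidence interval from the edgeR fit (lines), in black where the adjusted p was under 0.05. Nlrp3 and Ninj1 lie to the right of 0 and Nlrp1b to the left, and the interval of Casp1 ends just below 0 at -0.03 although its adjusted p of 0.0616 was not under the threshold.

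Gsdmd, which encodes the pore-forming gasdermin D, was at 95.6 and 88.3 CPM in WT and 88.2 and 93.1 CPM in anti-Act1. The groups overlapped. The log2 fold change was -0.02 (SE 0.06, adjusted p in edgeR = 0.851), with a 95% confidence interval of -0.13 to 0.09, and it was 0.04 without WT replicate 1 and 0.02 without anti-Act1 replicate 1.

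Ninj1, the gene of the membrane rupture protein ninjurin-1, was at 397 and 368 CPM in WT and at 520 and 539 CPM in anti-Act1. Both anti-Act1 libraries were well above both WT libraries, with a gap between the groups wider than the spread within either. The log2 fold change was 0.47 (SE 0.05, adjusted p in edgeR = 5.77e-10), and the fold of 1.38 had a 95% confidence interval of 1.29 to 1.49. With 25632 and 27952 counts in WT and 32103 and 29460 in anti-Act1, it was the most deeply counted of the 9 genes. Gsdmd and Ninj1, which act one after the other in lysis, thus differed in FPKM ratio between the groups, with 6.27 and 6.29 of Ninj1 for each unit of Gsdmd in WT and 8.90 and 8.74 in anti-Act1. Card19, the next protein-coding gene of the table in RefSeq order on chromosome 13, was singled out after its values were seen. It was at 126 and 117 CPM in WT and 171 and 175 CPM in anti-Act1 (log2 fold change 0.51, SE 0.05, adjusted p in edgeR = 1.48e-10). On the other side of Ninj1, Wnk2 was also called higher (log2 fold change 0.46, adjusted p in edgeR = 0.00447). The next genes outward, Fam120a (-0.05) and Susd3 (0.08), were not called. Of all genes tested 20.7% were called, and called genes also lay near members that were not called. Examples were Yipf4 (0.19) next to Nlrc4 and Itgam (-0.31) near Pycard. A link between Ninj1 and its neighbours was not tested. The longest coding transcript of Ninj1 shared no 150-base stretch with transcripts of other genes, and no other gene model overlapped Ninj1 in GENCODE M21.

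Per unit of length, Ninj1 was by far the most abundant of the 9 transcripts, with 341 ± 16.8 FPKM (SD, n = 2) in WT and 464 ± 8.14 FPKM in anti-Act1, above 98.9% of the genes tested. Gsdmd followed with 54.3 ± 2.84 FPKM in WT and 52.6 ± 1.57 FPKM in anti-Act1, and then Casp1 with 48.3 ± 1.40 and 42.9 ± 1.92 FPKM. Gsdmd stood above Casp1 in each of the 4 libraries, by a factor of 1.06 to 1.29. Pycard (28.0 ± 3.24 and 29.4 ± 0.301 FPKM in WT and anti-Act1) and Casp4 (26.3 ± 0.153 and 25.2 ± 1.47 FPKM) overlapped in WT, while Pycard was the higher of the pair in both anti-Act1 libraries. Among the sensors Nlrp3 (16.5 ± 0.202 FPKM) and Aim2 (16.6 ± 1.11 FPKM) were level in WT, while in anti-Act1 Nlrp3 (20.1 ± 0.193 FPKM) stood above Aim2 (15.2 ± 1.03 FPKM). Nlrc4 was lower, with 6.11 ± 0.139 FPKM in WT and 5.75 ± 0.256 FPKM in anti-Act1, and Nlrp1b was the lowest, with 5.15 ± 0.247 and 3.19 ± 0.295 FPKM. The mean over the 4 libraries was 96.5 times higher for Ninj1 than for Nlrp1b, and the latter was above 35.1% of the genes tested.

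**Figure D3:**
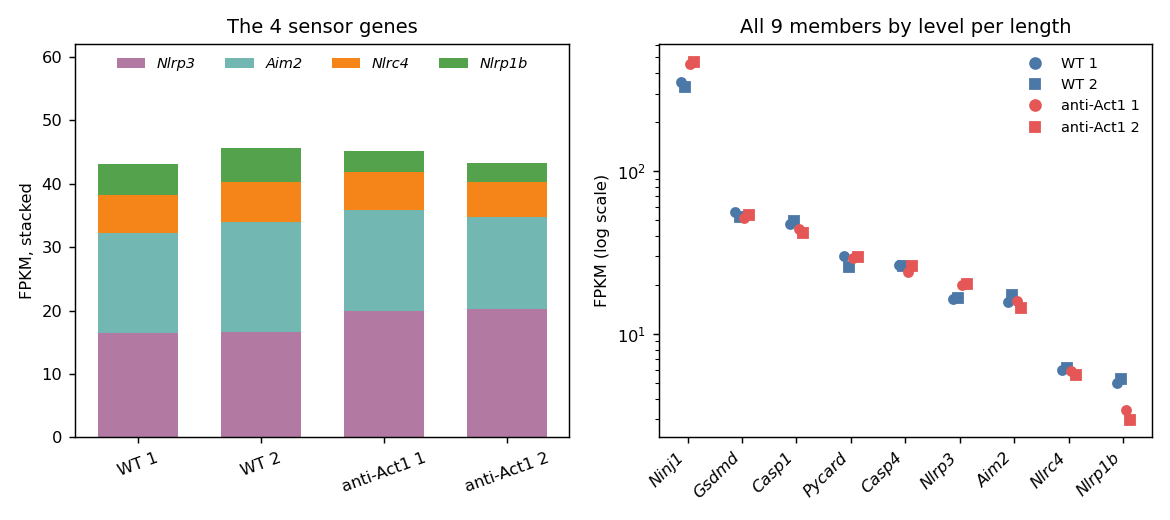
Left, FPKM of the 4 sensor genes stacked for each library; right, FPKM of all 9 genes on a logarithmic axis, ordered by their mean over the libraries, with WT in blue, anti-Act1 in red and the replicates as circles and squares. The stacks reach a like height of 43.1 to 45.5 FPKM, with a larger Nlrp3 part and a smaller Nlrp1b part in anti-Act1, and Ninj1 lies far above the other 8 genes.

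The genes that surround these 9 in the pathway were read from 9 lists of 88 genes in all, of which 85 were in the table and 70 were tested. Of these 70, 21 were higher and 7 lower in anti-Act1 at an edgeR adjusted p under 0.05, and their median log2 fold change was 0.04. The called share was 40.0%, beside 20.7% of all genes tested. The lists were chosen with earlier results of these data known, so no excess is read from these shares, and their difference was not tested. Only 13 of the 28 called genes (11 higher and 2 lower) kept the call in each of the 4 fits that leave out 1 library, and the other 15 lost it in at least 1 of them.

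Among other sensors and receptors, 3 of 12 tested genes were higher and 3 lower, with a median log2 fold change of -0.06. Naip2, the receptor of the secretion-system rod protein upstream of Nlrc4, was higher (145 and 139 CPM in WT, 178 and 164 CPM in anti-Act1, log2 fold change 0.27, adjusted p in edgeR = 0.000105). Tmem173, the older symbol of the gene for the DNA-signalling adaptor STING, was lower (38.5 and 37.6 CPM in WT, 28.4 and 28.7 CPM in anti-Act1, log2 fold change -0.41, adjusted p in edgeR = 3.50e-06). Calls on the other 4, Ifi204 and Mefv (both 0.16 on the log2 scale), Naip6 (-0.17) and Nlrp1a, were lost in 3 of the 4 fits without a library. Naip5 and Naip6 recognise flagellin and belong with Naip2 to a family of close copies, whose counts are uncertain to the extent that reads were shared, and 0.556% of the 150-base stretches of Naip2 and 1.89% of those of Naip6 also occurred in other Naip genes. Ifi204 shared more, 10.8% of its stretches with Ifi211.

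Regulators of sensor activation had 2 higher and 2 lower genes of 11 tested and a median log2 fold change of -0.03. P2rx7, the ATP-gated channel whose opening lets potassium out upstream of NLRP3, was lower (89.1 and 91.3 CPM in WT, 68.9 and 71.5 CPM in anti-Act1, log2 fold change -0.36, adjusted p in edgeR = 1.50e-06). Txnip, a thioredoxin-binding protein known as a binding partner of NLRP3, was higher (log2 fold change 0.29, adjusted p in edgeR = 1.06e-05), and 11.6% of its 150-base stretches were shared with the gene model Gm15441. Panx1, a pannexin channel gene, was called higher (0.30) and Dpp8, one of the peptidases that restrain NLRP1B, was called lower (-0.14), but Panx1 lost its call in 2 and Dpp8 in 3 of the 4 fits without a library. Nek7, the kinase that NLRP3 needs for assembly, was at 0.978 of its WT level (adjusted p in edgeR = 0.746).

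The guanylate-binding proteins and immunity-related GTPases, which coat and open vacuoles and bacteria and so expose ligands to AIM2 and caspase-11, had 5 higher and 0 lower genes of 7 tested, with a median log2 fold change of 0.58. Gbp2 rose most among the called genes, from 63.6 and 62.6 CPM in WT to 109 and 108 CPM in anti-Act1 (log2 fold change 0.79, adjusted p in edgeR = 5.26e-16), followed by Gbp3 (0.61) and Gbp5 (0.58). Gbp7 (0.22) and Irgm1 (0.17) were also called, but not in every fit without a library, and Gbp2b had at most 19 counts in any library. The share of 150-base stretches that also lay in another gene model was 8.93% for Gbp7 (Gm43802).

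Other caspases had 1 higher and 0 lower gene of 7 tested and a median log2 fold change of -0.02. The called gene was Casp6 (0.27, adjusted p in edgeR = 0.00283), and it was not called without WT replicate 2 (0.17), while Casp8, an apoptotic initiator and the most abundant of these per length, had a log2 fold change of -0.10 (adjusted p in edgeR = 0.194). Of the other gasdermins and Ninj2 only 2 of 10 genes had enough counts for a test, and Gsdma2, Gsdma3, Gsdmc and Gsdmc2 had 0 counts in all libraries. Dfna5, the older symbol of the gene for gasdermin E, was called lower (27.5 and 26.0 CPM in WT, 24.5 and 22.0 CPM in anti-Act1, log2 fold change -0.20, adjusted p in edgeR = 0.0494), a call lost without WT replicate 1 (-0.16) and without anti-Act1 replicate 2 (-0.12). On the FPKM scale Dfna5 was at 10.5 on average in WT and 8.99 in anti-Act1, below the 54.3 and 52.6 FPKM of Gsdmd. The median of the list, -0.76, rests on Dfna5 and on Gsdmc4, which had at most 30 counts.

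Of the 12 genes of the ESCRT-III machinery, which cuts damaged membrane away and seals gasdermin pores, 2 were higher and 0 lower, with a median log2 fold change of 0.10. These were Chmp1b (0.26, adjusted p in edgeR = 0.000130) and Chmp5 (0.20, adjusted p in edgeR = 0.00507), the latter not called without WT replicate 2 (0.14) or without anti-Act1 replicate 2. For Chmp1b 19.2% of the 150-base stretches also lay in the gene model AC140336.1. Among cytokines that leave pyroptotic cells and their inhibitors, 4 of 7 tested genes were higher and 0 lower, with a median log2 fold change of 0.25. Il1a rose from 20.4 and 18.9 CPM in WT to 50.2 and 50.0 CPM in anti-Act1 (log2 fold change 1.35, adjusted p in edgeR = 3.49e-21), Il1b was higher by 0.29 and the receptor antagonist Il1rn by 0.25 on the log2 scale, and Il18bp (0.20) was called in only 1 of the 4 fits without a library. Il1a shared 4.16% of its 150-base stretches with the gene model Gm14023. Il18, the second cytokine that caspase-1 matures, had a log2 fold change of -0.14 (adjusted p in edgeR = 0.294).

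Necroptosis genes had 2 higher and 1 lower of 6 tested (median log2 fold change 0.16). Zbp1, a sensor of Z-form nucleic acids, was higher by 0.32 (adjusted p in edgeR = 9.90e-06). The call on Mlkl, the executioner of necroptosis (0.28), was lost in 2 of the 4 fits without a library, as was that on Ripk1 (-0.17), which shared 5.73% of its 150-base stretches with the gene model Gm17084. Of 6 transcription factors known for these genes 2 were higher and 0 lower (median log2 fold change 0.05). Nfkb1, the gene of an NF-κB subunit precursor, was called higher (0.15, adjusted p in edgeR = 0.0465), and this call was lost in 3 of the 4 fits without a library. Irf8, the most abundant of the 6 per length, had a log2 fold change of -0.04.

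**Figure D4:**
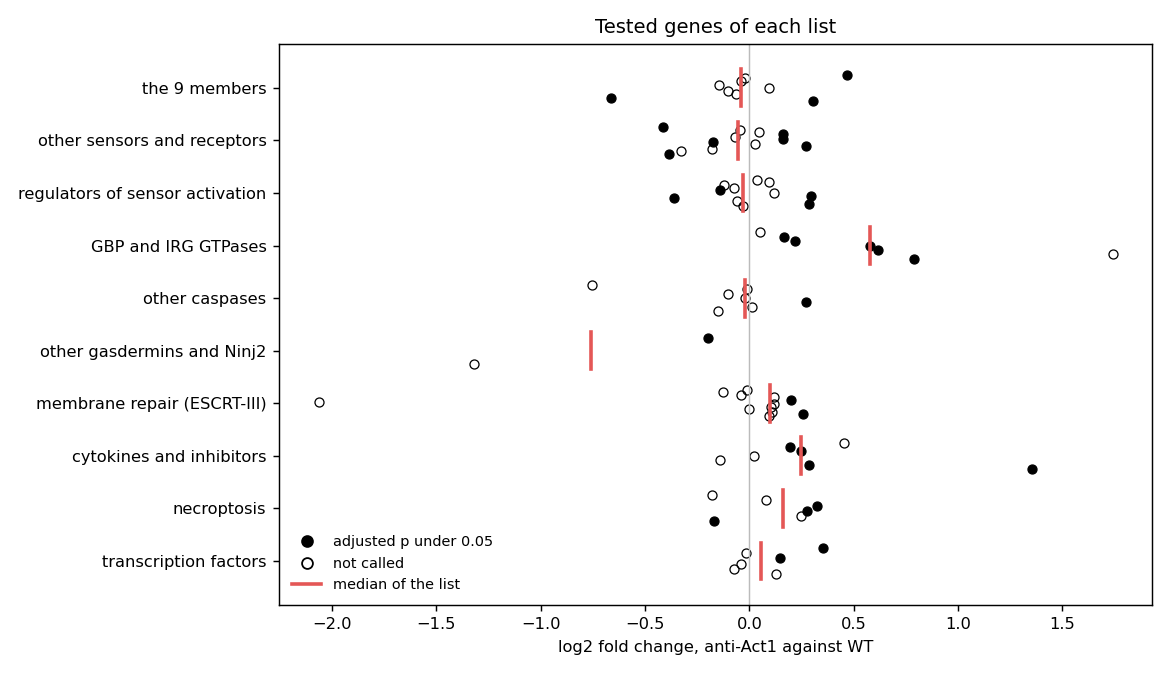
Log2 fold change in anti-Act1 against WT (horizontal axis) of the 9 genes and of the tested genes of each list (rows), with filled points at an edgeR adjusted p under 0.05, open points otherwise and a red line at the median of the list. Filled points of the GTPase row and of the cytokine row all lie to the right of 0, whereas the 9 genes and the other sensors have filled points on both sides.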

How the data were processed

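The authors filtered read pairs for adapters and low quality and aligned them with TopHat. The submitters' processing notes list Bowtie 0.12.2 and HTSeq 0.6.1 and the builds mm8 and mm10, without saying which build the tables use. The deposited counts are whole reads per gene without normalization, and the deposited FPKM values are the same counts divided by gene length and library total. The 2 tables were joined by gene symbol, and 2 repeated symbols were left without FPKM.

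Counts were tested with edgeR 4.0.16 (R 4.3.3), with a model of condition alone after TMM scaling and the filterByExpr filter. The quasi-likelihood F tests were two-sided, p-values were adjusted over all 12494 tested genes by Benjamini and Hochberg's method, and the threshold was 0.05. CPM were scaled to library totals after TMM. An exact permutation test of 2 libraries against 2 cannot go below p = 0.333. The sources name the libraries as biological replicates but not separate mice, so the p-values measure the spread between these libraries. Gene lists and members were chosen with earlier results of these data known, and list counts are given without a list test. All 9 members were named, and from each list up to 4 called genes with the smallest adjusted p and the gene with the highest FPKM, with others of a list where useful. Of these, 1 gene under this rule is not reported here.

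There were 13 alternatives. DESeq2 1.42.0 replaced edgeR, or gave only its size factors. Library totals were used without TMM. The filter was dropped, or set to a minimum of 10 counts per library. Replicate number entered as a block. FPKM were tested with limma 3.58.1 after adding 1 or 0.1 and taking log2 (genes of at least 1 FPKM in 2 libraries), and with 1 added also unfiltered. Finally, 1 library was omitted at a time. On simulated counts with 200 changed genes the edgeR test, run on 12399 genes, called 47 of 78 genes changed 1.25-fold, 51 of 59 changed 1.5-fold and 56 of 63 changed 2-fold, with 10 false calls. Same-numbered replicates did not deviate together (correlation -0.03), and the labels do not pair them. Promoter windows are from RefSeq, with entries for 8 of the 9 members, and shared 150-base stretches and overlapping gene models from GENCODE M21.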

Additional observations from a re-analysis of the deposited data

How the results depend on the processing

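Nlrp3 (log2 fold change 0.27 to 0.33), Nlrp1b (-0.75 to -0.56) and Ninj1 (0.42 to 0.52) were called in the same direction in all 13 alternatives, with adjusted p values of at most 0.0278, 0.0304 and 0.0193. Nlrc4 and Aim2 were called in none of them, but with 1 library left out they ranged from -0.097 (without anti-Act1 replicate 1) to -0.026 (without anti-Act1 replicate 2) and from -0.17 to -0.035 (the extremes being the fits without WT replicates 1 and 2). Casp1 passed the threshold with limma on log2(FPKM + 0.1) and log2(FPKM + 1) (-0.17 and -0.17, limma adjusted p = 0.0449 and 0.0443), without composition normalization (-0.17) and without WT replicate 1, with a range of -0.18 to -0.11 when 1 library was left out. With 1 library left out Pycard ranged from -0.024 to 0.22 (the lowest without WT replicate 2 and the highest without WT replicate 1), Casp4 from -0.11 to 0.032 (0.032 without anti-Act1 replicate 1) and Gsdmd from -0.077 to 0.036 (the same pair of WT libraries), and the cause was not tested. The count of called members was 3 to 5 with 1 library left out, 5 being without WT replicate 1. Called pathway genes numbered 18 and 18 in the filtered limma fits and 12 in limma without a filter. They numbered 16 to 23 with 1 library left out. Calls over all genes numbered 1091 in limma without a filter. With 1 library left out, calls over all genes numbered 1671 to 2543 (1712 without anti-Act1 replicate 1, 1671 without anti-Act1 replicate 2). The fits with 1 library left out rest on fewer samples, and why their counts differed was not tested. The replicate block left 3 called members, 25 called pathway genes and 2406 called genes. DESeq2 called 1986 genes, 1960 of them shared with edgeR. Naip2 and Il1b were among the pathway genes not called in limma without a filter (limma adjusted p = 0.0779 and 0.0822). With 2 libraries a group, small changes were often missed in simulated counts. The share of genes changed there was far smaller than the share called in these libraries. The simulated rate therefore does not give the rate of missed changes here, which was not measured.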
